A study of Saccharomyces cerevisiae with 2 samples.

Results

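The genes for the proteins of the large (60S) ribosomal subunit of budding yeast were taken from the ORF table as the rows named RPL with a number and optionally A or B, together with RPP0, RPP1A, RPP1B, RPP2A and RPP2B. One paralogue pair was left out and is not analysed here. This gave 79 genes of 6698 ORFs. RNA bound to Cbc2, a subunit of the nuclear cap-binding complex, was purified through a TAP tag from SK1 diploids at 6 h of meiosis and sequenced as 1 library of wild type, homozygous for CBC2-TAP, and 1 library of trf4Δ, homozygous for trf4::NatMX6 and for CBC2-TAP. Both strains carried ho::LYS2, lys2, ura3, leu2::hisG, his3::hisG and trp1::hisG. The libraries were run on separate lanes, so lane and genotype cannot be told apart, and no difference between them has a replicate check. The libraries hold only RNA that came down with Cbc2, so the amount of an RNA and its binding to Cbc2 cannot be told apart either.

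Trf4 is the poly(A) polymerase of the TRAMP complex, which adds short tails to nuclear RNAs and passes them to the nuclear exosome for trimming or decay. Its substrates include cryptic unstable transcripts (CUTs), precursors of snoRNAs and unspliced or faulty precursors of messenger RNA. The large subunit proteins surround the ribosomal RNA that joins amino acids, and most are encoded by a pair of near-identical genes, A and B. Ribosomal protein genes are among the few yeast genes with introns. In growing cells they are transcribed at a high rate under Rap1, Fhl1, Ifh1 and Sfp1, and they are shut down when nutrients run out, as in sporulation medium.

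Values are read numbers. Wild-type reads were multiplied by the factor that the authors applied to the ORF table, 1.345, to match the larger trf4Δ library, and are called normalised. The ORF table holds 11628987 reads before that step in wild type and 10951658 in trf4Δ. TRF4 itself stands in the table as PAP2 (YOL115W) and had 346 reads in wild type before normalisation and 1 in trf4Δ, a 465-fold lower level with a 95% counting interval of 83.0 to 18430. Meiotic transcripts were present in both libraries, with between 700 and 16711 reads for each of SPO11, DMC1 and NDT80. Intervals given here are 95% intervals that cover counting error only, since PCR copies are not independent molecules. ORFs were compared if either library had a log2 read number over 6, which held for all 79 genes and for 6246 ORFs in all.

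The large subunit genes had fewer Cbc2-bound reads in trf4Δ than in wild type, with a median log2 difference (trf4Δ minus wild type) of -1.27, against -0.97 over all ORFs compared and -0.96 over the 56 small subunit protein genes. Of the 79 genes, 62 were below wild type and 17 above, against 4500 and 1746 of the 6246 ORFs compared. More than 4-fold lower were 15 (19.0%), against a background of 10.6% of all ORFs, and 2 were more than 4-fold higher, against 8.09%. More than 2-fold lower were 47 (59.5%), against 49.0%, and more than 2-fold higher were 8 (10.1%), against 15.3%. The share more than 2-fold lower thus lay near that of all ORFs, and the shares of higher genes lay below it. Scaling that sets the median of all ORFs to 0 leaves 0 genes more than 4-fold lower and 7 more than 4-fold higher, and 48 of the 79 genes lie below that median, which this scaling shifts by 0.97. The direction of a gene between -0.97 and 0 therefore depends on the scaling.

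**Figure D1:**
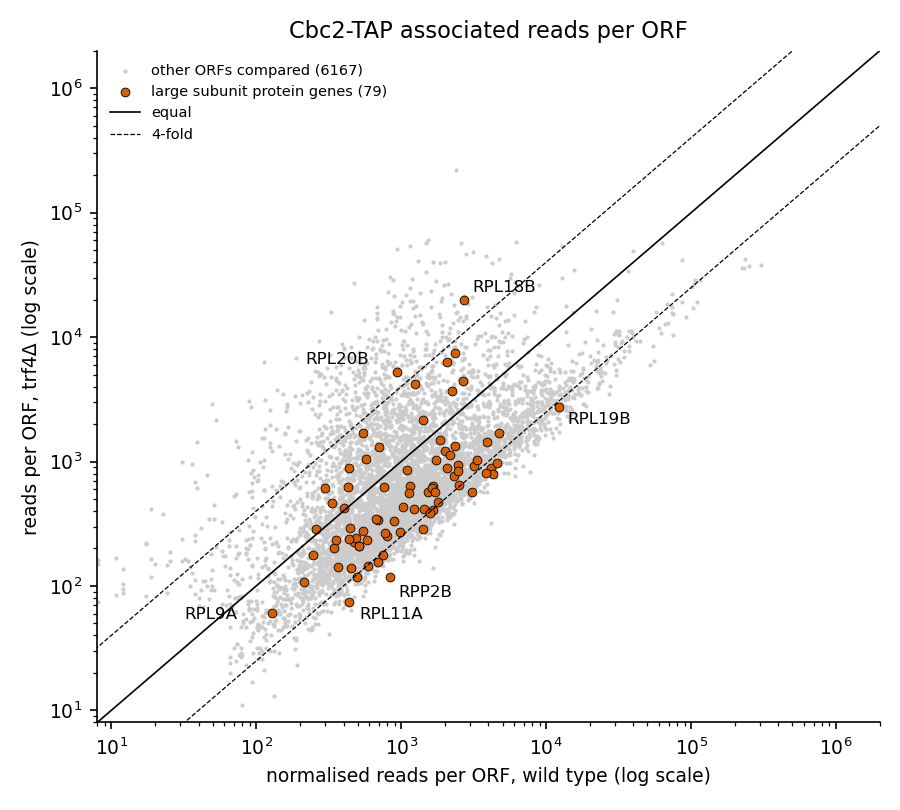
Reads per ORF in trf4Δ (vertical) against normalised reads in wild type (horizontal), both on log scales, for the 79 large subunit protein genes (orange) and the other ORFs compared (grey); the solid line marks equal reads and the dashed lines a 4-fold difference. Most orange points lie below the solid line within the grey cloud, with RPL18B and RPL20B above the upper dashed line.

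Members differed widely in level. Per kb of ORF, the highest levels in wild type were those of RPL41B and RPL41A, with 40893 and 39186 normalised reads per kb, followed by RPL38 (16148), RPL29 (13059) and RPL19B (12772). RPL41A and RPL41B encode a very short peptide, and each ORF is only 78 bp long. The ORF length used here includes the intron, so a gene with a sparsely read intron ranks lower than per kb of coding sequence. RPL19B, RPL18B and RPL43B have an intron, and no ranking per kb of coding sequence was made. In trf4Δ the order was RPL18B (19975 reads per kb), RPL41B (11692), RPL9B (10964), RPL43B (8067) and RPL29 (7361). RPL41B and RPL29 were thus among the 5 highest in both libraries. The lowest read number was that of RPL9A, with 95 reads before normalisation in wild type and 61 in trf4Δ. The 5 genes with most reads held 24.2% of the family's reads in wild type and 45.0% in trf4Δ, and the family held 0.795% of all ORF reads in wild type (Wilson interval 0.790 to 0.801) and 0.878% in trf4Δ (0.873 to 0.884).

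The genes of the ribosomal stalk, a flexible arm that recruits elongation factors, lay at the low end. All 7 were below wild type, 6 by more than 2-fold and 4 by more than 4-fold, and their median log2 difference was -2.09. Of the 6246 ORFs compared, 4500 were below wild type, 49.0% of all by more than 2-fold and 10.6% by more than 4-fold. RPP2B (YDR382W, chromosome IV, 1239484 to 1239816), which encodes an acidic P2 protein, had 831 normalised reads in wild type and 119 reads in trf4Δ. Its log2 difference was the lowest of the family at -2.80 (interval -3.10 to -2.52). RPP1A, for an acidic P1 protein, had 1412 normalised reads and 286 reads (log2 difference -2.30). RPL12A and RPL12B, whose protein sits at the base of the stalk, both differed by -2.09, with 498 and 750 normalised reads against 117 and 176. The stalk base gene RPP0 had 3336 normalised reads and 1024 reads (-1.70), and RPP1B differed by -1.66. RPP2A was the mildest with 666 and 344 reads (-0.95), near the median of all ORFs compared (-0.97). RPP0, RPL12A and RPL12B, as well as RPL10, RPL39 and RPL43A among the other low genes, belong to the 14 members that overlap another ORF, whose reads cannot be told apart without strand.

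The 3 genes of the 5S RNP, the particle of 5S rRNA with L5 and L11, were all more than 2-fold lower, against 49.0% of all ORFs. RPL11A (YPR102C, chromosome XVI, 731222 to 731746) had 437 normalised reads and 74 reads, a log2 difference of -2.56 (-2.95 to -2.19). RPL11B had 449 and 139 (-1.69) and RPL5 had 1706 and 565 (-1.59). Only 35.1% of the 36-base words of RPL11A and RPL11B are unique in the R64 reference genome. The 100 bp segments at 146 and 246 bp past the start of RPL11A held at most 1 read before normalisation in either library, so its value rests on the ends of the ORF.

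Of the 5 genes whose proteins join the subunit in the cytoplasm, 3 (60%) were more than 2-fold lower, near the 49.0% of all ORFs. RPL10 (YLR075W, chromosome XII, 282928 to 283593), whose protein is needed for subunits to join, had 4327 normalised reads and 795 reads (log2 difference -2.44, interval -2.56 to -2.33). RPL40A and RPL40B, which encode L40 fused to ubiquitin, differed by -1.85 and -1.29, and RPL24A by -0.88, while RPL24B had 333 and 468 reads (0.49). Along the exit tunnel, through which the new protein leaves, 11 of 14 genes (78.6%) were more than 2-fold lower, against 49.0% of all ORFs. More than 2-fold higher was 1 (7.14%), against 15.3%. RPL19B, the member with most reads in wild type, had 12185 normalised reads and 2726 reads (-2.16, interval -2.22 to -2.10). RPL39 differed by -2.03 and RPL4A by -2.01. RPL26A and RPL31B were the 2 genes of this list above wild type, with 2256 and 3680 reads (0.71) and with 296 and 608 (1.04).

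The list of the catalytic centre held only RPL3 and the copies RPL2A and RPL2B. Of these 3 genes, 2 were more than 2-fold higher, against 15.3% of all ORFs. The list was made with earlier results of these data known, so no trait of the centre is read from it. RPL3 (YOR063W, chromosome XV, 444688 to 445851), whose protein reaches into the peptidyl transferase centre, had 2345 normalised reads and 7467 reads (1.67, interval 1.60 to 1.75). RPL2A had 549 and 1692 (1.62), and its copy RPL2B had 761 and 625 (-0.28). In both the higher reads lay in a part of the ORF, as described next. The remaining genes more than 4-fold lower were RPL41A (3057 and 565 reads, -2.44) and RPL43A, RPL38, RPL37B, RPL14A and RPL21B, with log2 differences between -2.25 and -2.04. Genes without an intron made up 9 of the 15 genes more than 4-fold lower, which is 32.1% of the 28 such genes against 11.8% of the 51 genes with an intron. ORF reads of the latter include reads in the intron, and from exon segments only the shares were 32.1% and 21.6%.

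The 100 bp segments showed that the members higher in trf4Δ differed in where along the gene the reads lay. The strand of these reads is not known, so transcripts of the other strand cannot be told apart from those of the gene. RPL18B (YNL301C, chromosome XIV, 63570 to 64562), for L18, was the highest of the family, with 2718 normalised reads in wild type and 19835 in trf4Δ (2.87, interval 2.80 to 2.93). Each of the 10 segments assigned to it exceeded wild type more than 4-fold, by 5.74-fold to 11.7-fold. The segment 62 bp past the ORF start had 609 normalised reads and 4887 reads, the segment at 262 bp, inside the intron, had 460 and 3353, and the segment at 1062 bp, past the end of the ORF, had 32.3 and 575. Reads were thus higher over both exons, the intron and the 3′ flank. RPL9B (YNL067W, chromosome XIV, 499682 to 500257), for L9 and known from other work to end its transcripts by alternative routes of termination, had 2076 and 6315 reads (1.60, interval 1.52 to 1.69). It was also higher along the whole ORF, with 982 and 2734 reads in the segment at 19 bp and 219 and 1057 at 519 bp. All 4 of its downstream segments were more than 4-fold higher, up to 380 reads against 4.03 normalised reads at 919 bp.

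In RPL3 the gain was confined to the 3′ part. From 13 to 513 bp its segments held between 180 and 411 normalised reads in wild type and between 58 and 120 reads in trf4Δ, lower in each. From 713 bp on they held 296, 273, 243, 257 and 94.1 normalised reads against 1839, 2123, 1778, 2386 and 1207 in trf4Δ. The segment in between, at 613 bp, had 191 and 449. The step thus fell between 513 and 713 bp, inside a gene without an intron or a second copy. The sequence at the end of the step, from 664 to 813 bp, is shown because no other ORF of the table overlaps it. Bases of the step before 664 bp are not printed. The printed bases are R64 chrXV:445349-445498, plus strand, with the first segment of more than 4-fold gain in capitals.
RPL3: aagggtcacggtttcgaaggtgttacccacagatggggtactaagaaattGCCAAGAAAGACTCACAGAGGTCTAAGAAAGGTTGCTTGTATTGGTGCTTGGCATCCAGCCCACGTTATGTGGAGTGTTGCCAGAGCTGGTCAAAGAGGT

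RPL20B (YOR312C, chromosome XV, 900247 to 901191), for L20, was the other member more than 4-fold higher, with 943 normalised reads and 5210 reads (2.47, interval 2.35 to 2.58). Its intron segments from 91 to 291 bp held 14.8 to 47.0 normalised reads, against 32 to 57 in trf4Δ. The level then climbed along exon 2, with 206 and 499 reads at 591 bp, 212 and 877 at 691 bp, 228 and 2621 at 791 bp and 132 and 2301 at 891 bp. Beyond the ORF, at 991 bp, it was down to 6.72 and 61. Its copy RPL20A showed nothing like this, with 61.8 and 28 reads at 719 bp and 64.5 and 29 at 919 bp. The end of both ORFs is printed to show how far reads of the copies can be told apart: 12 of the last 180 bases differ, in capitals, and 93.1% and 92.7% of the 36-base words of the whole ORFs are unique. The coordinates are R64 chrXIII:753225-753404 and chrXV:900250-900429, minus strand.
RPL20A: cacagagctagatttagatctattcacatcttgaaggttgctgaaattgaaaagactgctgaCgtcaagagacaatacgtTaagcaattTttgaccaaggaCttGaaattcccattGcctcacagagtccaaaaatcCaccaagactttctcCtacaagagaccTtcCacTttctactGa
RPL20B: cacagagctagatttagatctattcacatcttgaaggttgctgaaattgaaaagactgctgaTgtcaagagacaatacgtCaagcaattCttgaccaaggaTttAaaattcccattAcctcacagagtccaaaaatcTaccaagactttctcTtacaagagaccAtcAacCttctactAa

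RPL8B (YLL045C, chromosome XII, 47858 to 48628) had 1247 normalised reads and 4188 reads (1.75). Its segments from 28 to 328 bp were lower in trf4Δ, and the gain lay at 628 bp (273 and 2278) and 728 bp (142 and 2943). This ORF overlaps YLL044W, but only in its segments up to 328 bp, outside the gain. All 4 of its upstream segments were more than 4-fold higher as well, up to 579 and 2725 reads at -472 bp. RPL2A had 172 and 64 reads at 206 bp but 124 and 1304 at 806 bp, and its 3 downstream segments were all more than 4-fold higher. RPL8A, the copy of RPL8B, had 191 and 1062 reads at 623 bp after values of 431 and 341 at 23 bp.

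**Figure D2:**
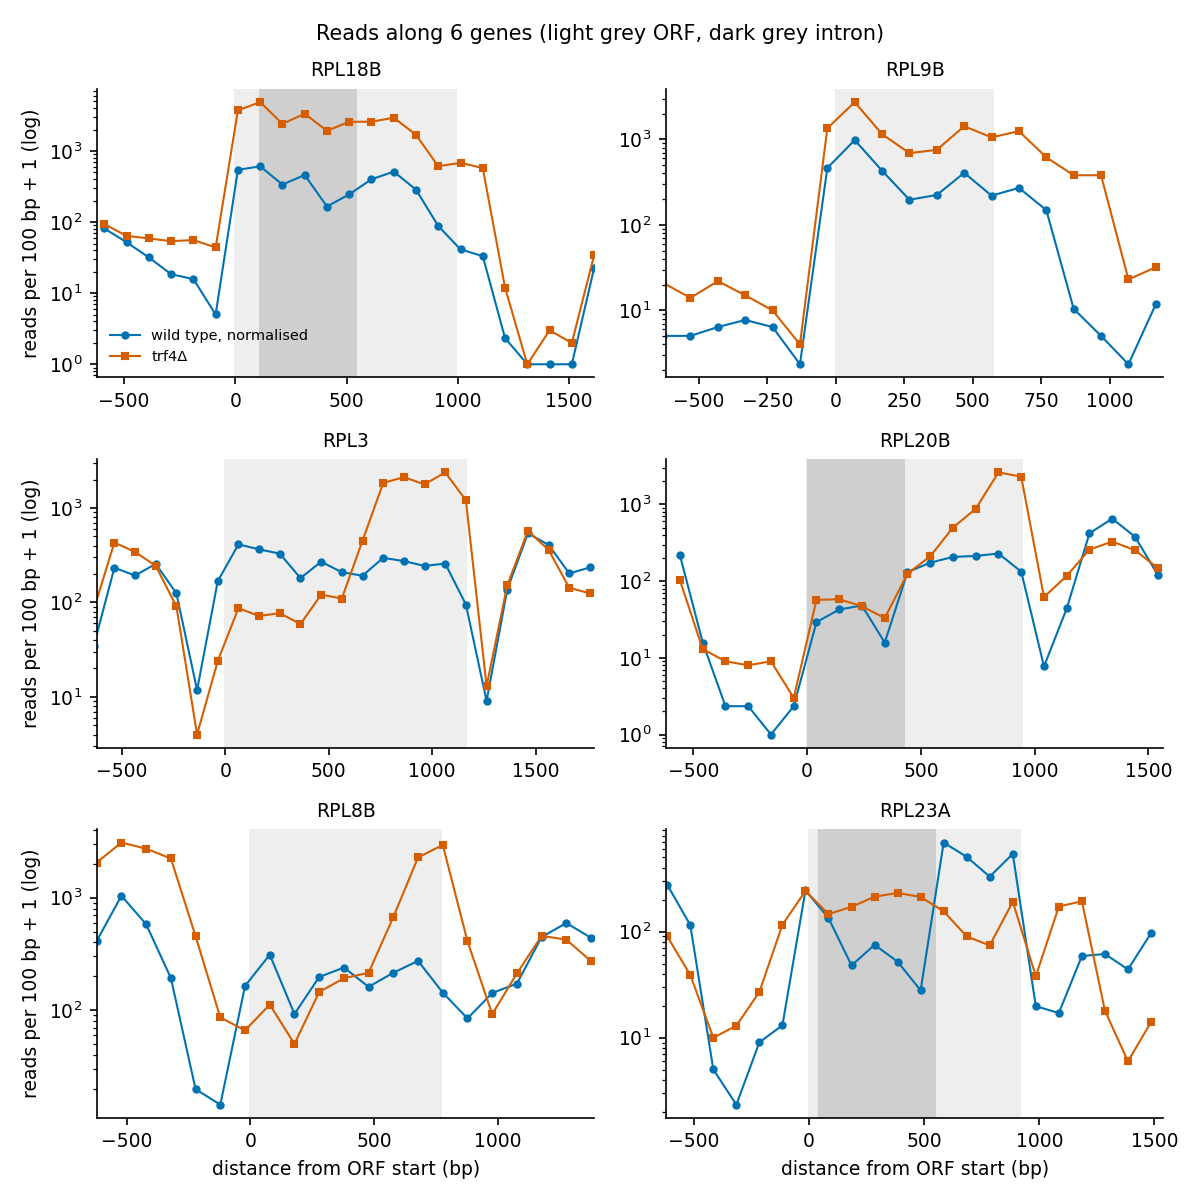
Reads per 100 bp segment plus 1 (log scale) against the distance of the segment's middle from the ORF start in 6 genes, for wild type after normalisation (blue circles) and trf4Δ (orange squares), with the ORF in light grey and the intron in dark grey. RPL18B and RPL9B are higher along the whole gene, RPL3, RPL20B and RPL8B at the 3′ end, and RPL23A in its intron.

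To see how frequent such profiles were, exon segments were split at the middle of the coding sequence, a measure added after the profiles had been seen. The log2 difference of the 3′ part exceeded that of the 5′ part by more than 2-fold in 16 of 73 members with enough reads (21.9%), against 27.3% of 5423 ORFs. The reverse was seen in 2 members, among them RPL31B, against 6.32% of ORFs. Members over 4-fold were RPL3 (-1.76 in the 5′ part and 2.85 in the 3′ part), RPL2A (-1.20 and 2.58), RPL8B (-0.76 and 2.29) and RPL20B (0.71 and 3.34), or 5.48% against 14.6% of ORFs. The share of the family with such a 3′ gain was thus below that of all ORFs. Of its 6 highest members 4 had one, but the gain itself raises the ORF reads that rank them. The share among other ORFs as high as these was not computed.

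**Figure D3:**
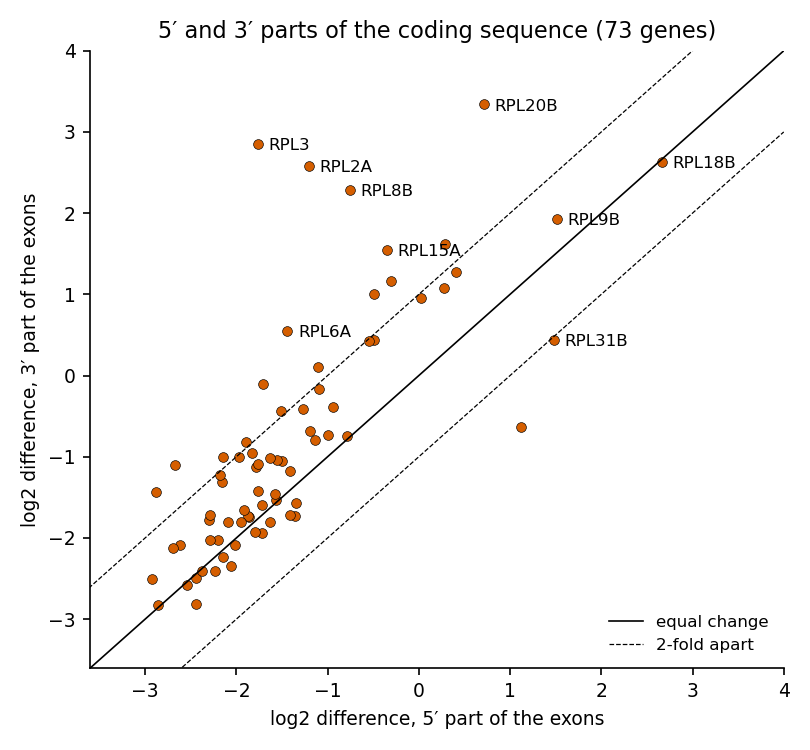
Log2 difference (trf4Δ minus wild type) in the 3′ part of the exons against that in the 5′ part for 73 large subunit genes; the solid line marks equal change and the dashed lines a 2-fold departure. RPL3, RPL2A, RPL8B and RPL20B lie far above the lines, and RPL18B and RPL9B within them.

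Intron reads were set against exon reads in the members with an intron, because unspliced precursors are known nuclear exosome substrates. Introns were taken from R64 and placed by their distance from the ORF start, and only segments wholly inside an intron or an exon were used. Of 51 genes with an intron, 49 had reads in all 4 classes. In wild type, intron density was a median of 9.98% of exon density, and in trf4Δ 24.9%. The median log2 difference was -1.52 in exons and 0.13 in introns. Under this scaling, exon reads were thus lower while intron reads stayed near the wild-type level. The intron to exon ratio was higher in trf4Δ in 42 of the 49 genes, a share near that of all ORFs that could be compared (105 of 123). It was more than 2-fold higher in 34 (69.4%), against 64.2% of the 123. Ribosomal protein genes make up most of those 123. The small subunit genes gave 24 of 34 (70.6%), and the other ORFs 21 of 40 (52.5%), with a median log2 change of the ratio of 1.45 in the large subunit genes, 1.72 in the small subunit genes and 1.09 in the others. The ratio does not depend on the scaling between libraries, whereas the exon and intron medians do. Scaling that sets the median of all ORFs to 0 would raise both by about 0.97.

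The levels behind this ratio were low. Introns had a median of 20.5 reads per segment in wild type before normalisation and 28.8 in trf4Δ. Segments outside ORFs with 6.63 to 68.7 wild-type reads, the range of the middle 80% of these introns, had a median log2 difference of 0.42, and segments inside ORFs with as few reads -1.0. The median of the introns lay between these values, and the part that reads of other transcripts have in it was not tested. Intron reads were more than 2-fold higher in 10 of the 49 genes (20.4%), against 26% of the 123 ORFs, and more than 2-fold lower in 0, against 7 of the 123. These counts depend on the scaling between libraries.

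The strongest case was RPL23A (YBL087C, chromosome II, 59818 to 60735), for L23 near the subunit interface. Its intron held 37.0 reads per segment in wild type before normalisation and 206 in trf4Δ, whereas its exons held 310 and 81.0. The intron to exon ratio went from 12% to 254%, a log2 change of 4.41 (interval 4.05 to 4.76). Its trf4Δ reads stayed between 145 and 230 per segment from 35 to 435 bp, and the segment upstream of the ORF at -165 bp had 12.1 and 115. RPL22A followed with 3.00 and 18.0 reads per segment in the intron and 136 and 59 in the exons (3.79, interval 2.52 to 5.07; it overlaps BUD28), and RPL17A with 7.00 and 29.5 against 489 and 154 (3.74, 2.89 to 4.59). RPL19B and RPL19A changed by 3.04 and 2.87. In RPL30, whose protein holds back splicing of its own transcript, the ratio went from 4.48% to 16.8%. The introns most dense relative to their exons in trf4Δ were, after RPL23A, those of RPL35A (222%, from 62.1%), RPL14A (131%, from 23.4%), RPL18B (131%) and RPL22B (124%, from 56.6%). RPL35A and RPL14A have exons in which many words are not unique, with 66.7% and 76.5% unique words over the ORF. RPL22B, whose protein also represses its own splicing, had 52.3 and 51.7 reads per segment in the intron and 92.5 and 41.5 in the exons.

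RPL18B differed from all of these. Its intron was as densely read as its exons in wild type, with 239 and 240 reads per segment, and both gained in trf4Δ, to 2567 and 1960. The ratio went from 99.7% to 131% (0.39, interval 0.25 to 0.54). Its splice sites are shown beside those of the 3 introns with the largest change, so that their letters can be compared. In the lines of the intron start, capitals mark the first 6 bases of the intron after 12 bases of exon 1. In the lines of the intron end, capitals mark the branch site motif TACTAAC and the AG at the end of the intron, followed by 12 bases of exon 2. All are RefSeq R64.
RPL23A start, chrII:60680-60709, minus strand: tttagaatctcaGTATGTtaaaatttttat
RPL23A end, chrII:60182-60249, minus strand: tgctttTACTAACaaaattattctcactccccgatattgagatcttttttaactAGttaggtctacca
RPL22A start, chrXII:263194-263223, plus strand: atggccccaaacGTATGAtactttaaaagg
RPL22A end, chrXII:263528-263606, plus strand: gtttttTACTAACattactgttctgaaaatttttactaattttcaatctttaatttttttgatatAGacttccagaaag
RPL17A start, chrXI:109566-109595, plus strand: gccaacgctgaaGTATGTcaagaatattat
RPL17A end, chrXI:109849-109895, plus strand: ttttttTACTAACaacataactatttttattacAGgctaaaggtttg
RPL18B start, chrXIV:64433-64462, minus strand: ctttcctagctcGTATGTattgaaatctcc
RPL18B end, chrXIV:64007-64070, minus strand: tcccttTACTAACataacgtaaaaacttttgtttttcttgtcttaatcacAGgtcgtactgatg

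On the strand of the gene, GTATGT opens 40 of the 51 introns of the family (78.4%) and TACTAAC lies in 50 (98%), against 66.3% and 74.7% of the 297 gaps of at least 50 bases between coding exons in R64. RPL22A is one of the 11 introns that open with other letters, and the intron of RPL19A is the one without TACTAAC. All 51 end in AG, and they are between 147 bases (RPL2A) and 561 bases (RPL27A) long. Genes in which the ratio was lower in trf4Δ numbered 7 of 49, against 18 of all 123 ORFs that could be compared. More than 2-fold lower, against 5 of the 123, it was in 2 genes of the family. These were RPL20B (16.8% to 4.28%, log2 change -1.98, interval -2.40 to -1.55) and RPL2A (26.7% to 8.84%, -1.59, -2.47 to -0.71). In both, the exon reads of the ratio include the gain at the 3′ end described above. The lower ratio is thus not a separate result.

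**Figure D4:**
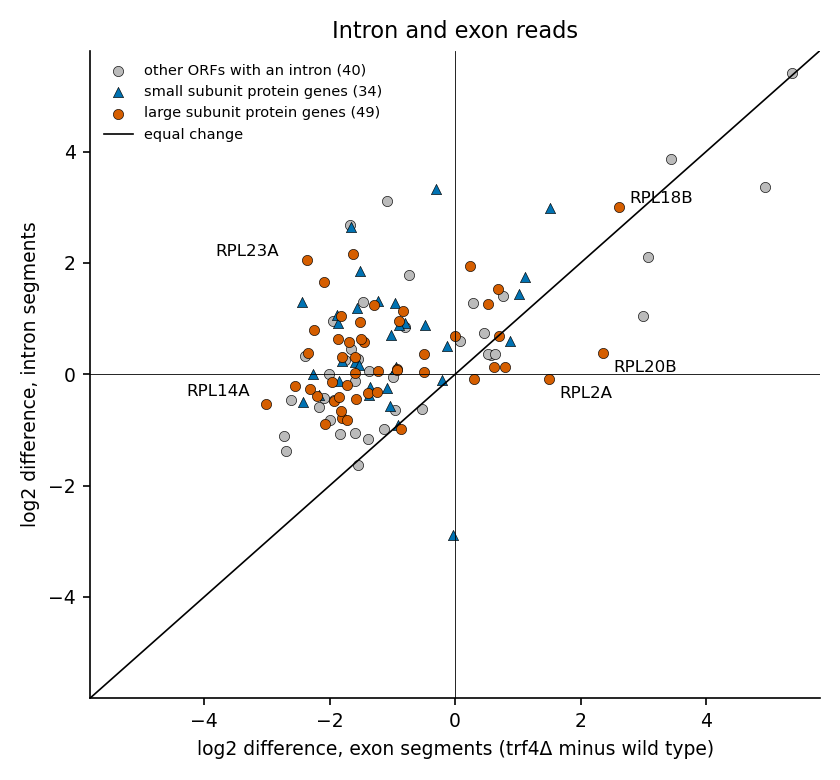
Log2 difference (trf4Δ minus wild type) of intron segments against that of exon segments in the large subunit genes (orange circles, 49), small subunit genes (blue triangles, 34) and other ORFs with an intron (grey circles, 40); the diagonal marks equal change. Most points lie above the diagonal, to the left of 0 for exons and near 0 for introns, with RPL23A far above it and RPL20B and RPL2A below.

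Reads in the flanks were separated from those of the ORFs by taking segments within 500 bp that overlap no ORF. More than 4-fold higher, with at least 64 reads in trf4Δ, were 28 of 585 segments inside members (4.79%), 18 of 278 upstream (6.47%) and 30 of 213 downstream (14.1%). Over all ORFs the shares were 5.07%, 16.4% and 12.8%. Without the minimum of reads the upstream shares were 32.0% and 31.3%, so the lower share upstream of members depends on that minimum. These segments inside ORFs lay in 10 members, of which 7 were more than 2-fold higher as ORFs, led by RPL18B with 10, RPL3 with 5 and RPL20B with 3. Genes with such a segment made up 12.7% of members inside the ORF, against 20.7% of all ORFs, 12.7% against 25.5% upstream and 23.4% against 19.2% downstream. A flank had such a segment in 23 members. In 7 of these the ORF had one too. Of the other 16, 3 were higher than wild type as ORFs, a share near that of the family (17 of 79). Over all ORFs compared it was 1746 of 6246. No such segment was found in or beside 53 members.

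Upstream of RPP0, all 3 segments were more than 4-fold higher. Those at -486 and -386 bp held 2741 and 2228 reads in trf4Δ against 20.2 and 18.8 normalised reads in wild type, 136-fold (interval 82.3 to 243) and 118-fold (70.4 to 217). The RPP0 ORF itself was lower in trf4Δ in each of its segments. Upstream of RPL15B, the segments at -253 and -153 bp had 163 and 4897 reads and 55.1 and 2464, while the ORF differed by -1.54. The same gene had 157 and 4373 reads at 947 bp, downstream. RPL6B had 118 reads at -449 bp against 1 read before normalisation, 87.8-fold (15.5 to 3497). Upstream segments more than 4-fold higher, with at least 64 reads in trf4Δ, lay before 10 members. Of these, RPP0, RPL15B, RPL6B, RPP2B, RPL17B, RPL40B and RPL23A were themselves lower as ORFs. RPL8B, RPL31B and RPL15A were more than 2-fold higher. In the whole family, 62 of 79 genes were lower. A link between a gain upstream and the level of the ORF was not tested.

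Downstream, RPL40B had 233 reads at 892 bp where wild type had 0, at least 57.8-fold higher against a floor of 3 reads, and 126 against 1 read before normalisation at 992 bp (93.8-fold, interval 16.5 to 3733). RPL25, for a protein at the tunnel exit, had 36.3 and 464 reads at 953 bp. RPL42B had 18.8 and 1677 reads at 854 bp, 89.1-fold (53.0 to 163), next to SNR32, which is annotated on the other strand from 1024 to 1211 bp. Of the 30 gained downstream segments, 6 lay in or within 200 bp of an annotated snoRNA. They lay downstream of RPL12A (SNR80), RPL27B (SNR13), RPL31A (SNR63), RPL36A (SNR11) and RPL42B (SNR32). These were the 5 members with a snoRNA downstream within 600 bp, and each had such a gain. The share among all ORFs with a snoRNA downstream was not computed. The gained segments of RPL27B, RPL36A and RPL12A overlap the snoRNA itself. There, reads of the snoRNA cannot be told apart from reads of the flank. The largest read number was that of the segment at 1139 bp from the start of RPL27B, with 1551 and 19162 reads. This segment overlaps SNR13, annotated from 1149 to 1272 bp, and the RPL27B ORF differed by -0.88.

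The A and B copies of a gene often differed in their response. There were 34 pairs with both copies in the table, with 69.2% (RPP1) to 99.4% (RPL1) identity between the coding sequences and a median of 93.2%. RPP1 and RPP2 pair related but distinct stalk proteins. The log2 differences of A and B lay a median of 0.80 apart, by more than 1 in 15 pairs and by more than 2 in 9, and the counting interval of the difference excluded 0 in 30. In 12 pairs one copy was higher and the other lower in trf4Δ, in 20 both were lower and in 2, among them RPL8, both were higher. No comparison with other duplicated genes was made.

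The pair furthest apart was RPL20, with 344 and 200 reads for A and 943 and 5210 for B, a difference between the copies (A minus B) of -3.25 (interval -3.54 to -2.96). RPL37, for a zinc-binding protein, went the other way, with 707 and 1303 reads for A and 4182 and 890 for B (3.11, interval 2.93 to 3.30). In RPL43 A had 4600 and 968 reads and B 2649 and 4469 (-3.0). In RPL9 A had 128 and 61 and B 2076 and 6315 (-2.67), and in RPL26 A had 2256 and 3680 and B 1795 and 477 (2.62). In these 5 pairs one copy was above and the other below wild type.

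**Figure D5:**
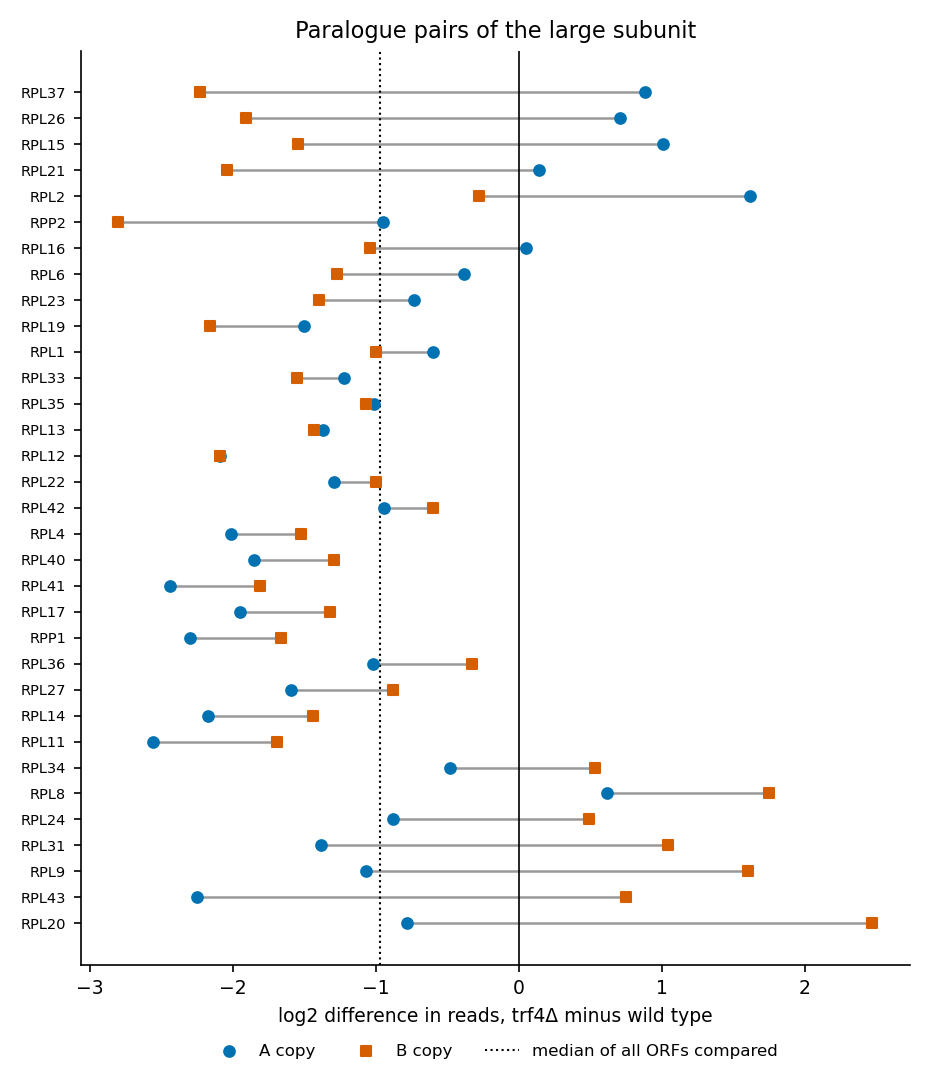
Log2 difference in reads (trf4Δ minus wild type) of the A copy (blue circle) and the B copy (orange square) of 33 of the pairs, ordered by the difference between copies; the dotted line marks the median of all ORFs compared and the solid line no difference. RPL37, RPL26 and RPL15 at the top and RPL20, RPL43 and RPL9 at the bottom have copies on either side of 0, while the RPL12, RPL13 and RPL35 copies nearly coincide.

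Levels of the copies were also unequal in wild type, by more than 2-fold per kb in 17 pairs and more than 4-fold in 8, with A higher in 14 pairs and B in 20. The largest gaps were in RPL9, where B was 16.3-fold above A, RPL37 (B 5.64-fold), RPL15 (B 5.56-fold) and RPL31 (A 5.03-fold). The copies of RPL11, RPL6 and RPL41 were nearest to equal, with log2 ratios of A to B of -0.04, 0.05 and -0.06. These levels are per kb of ORF with the intron. Only RPP1B of its pair has an intron, so the RPP1 ratio (A 3.43-fold) also reflects that length. The order of the copies was kept in trf4Δ in 23 pairs and changed in 11. In RPL15 the ratio went from -2.48 to 0.07, since A had 440 and 886 reads and B 2446 and 844, and in RPL37 from -2.50 to 0.62. In RPL26 the order was kept while the ratio went from 0.38 to 3.0.

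Near-identical copies limit these comparisons. Of the 79 members, 18 have under 80% unique 36-base words, and 25 of the 34 pairs have both copies above that share. RPL41A and RPL41B differ at 1 of 78 bases, in capitals below, with R64 coordinates chrIV:130407-130484 and chrIV:221724-221801, minus strand.
RPL41A: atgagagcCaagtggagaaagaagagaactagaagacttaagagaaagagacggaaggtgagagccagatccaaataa
RPL41B: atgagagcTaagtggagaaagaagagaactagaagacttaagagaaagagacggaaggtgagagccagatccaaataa

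RPL1A and RPL1B differ at 4 of 654 bases and are identical over the last 315. The segments of RPL1A from 212 to 512 bp held 0 reads in both libraries, and those at 12 and 612 bp, at the ends of the ORF, held 245 and 60 reads and 133 and 183. The identical stretch starts at base 340, so RPL1A was already empty before it, at 212 bp. RPL1B had 125 wild-type reads before normalisation at 255 bp. The cells were SK1, and whether the copies differ there as in R64 was not examined. The start of the stretch is shown because words inside it are the same in both copies in R64. The printed bases are R64 chrXVI:136099-136188 and chrVII:254950-255039, plus strand, with the last differing base in capitals.
RPL1A: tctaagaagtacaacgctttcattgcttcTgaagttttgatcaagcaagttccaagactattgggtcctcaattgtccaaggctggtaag
RPL1B: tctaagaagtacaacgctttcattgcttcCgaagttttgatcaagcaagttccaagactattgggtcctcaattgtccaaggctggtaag

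Among 6 transcription regulators of ribosomal protein genes, all were below wild type, as were 4500 of the 6246 ORFs, and 5 by more than 2-fold, against 49.0% of ORFs, with a median of -1.46. RAP1 had 2204 normalised reads and 786 reads (-1.49), IFH1 1233 and 388 (-1.67), SFP1 1251 and 330 (-1.92), and HMO1, a protein that binds many of these promoters, 1039 and 384 (-1.44). Of 13 dedicated chaperones and 60S factors, 5 were more than 2-fold lower and 3 more than 4-fold higher, against 49.0% and 8.09% of ORFs. The latter were REI1 (1019 and 19044 reads, 4.22), NMD3 (422 and 3862, 3.19) and JJJ1 (557 and 4917, 3.14), which act on the subunit's way through the cytoplasm or its export. TIF6, which keeps the subunits apart, had 3923 and 873 (-2.17). Where along these ORFs the reads lay was not analysed here.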

How the data were processed

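Cbc2-TAP RNA came from 1 wild-type and 1 trf4Δ library. The authors mapped reads with Bowtie and counted them in SeqMonk, and the submitters' processing notes name Bowtie 0.12.7 and Trim Galore 0.3.5. Reads were mapped either uniquely to SGD1.01, the build of the gene coordinates printed without the word R64, or to SK1 with non-unique reads placed at random. Which of these the tables hold is not stated. The segments at 412 bp of RPL1A and 455 bp of RPL1B, in a stretch identical in R64, held 0 reads, as unique mapping would leave. The paper's library protocol names no step that keeps the strand of the RNA. Reads from the other strand would then count in any ORF, also where no annotated ORF overlaps it. The deposited log2 values of 100 bp segments are of whole read counts without normalisation, with 0.9 in place of 0. The deposited log2 values of ORFs are of reads multiplied by 1.345 in wild type and unscaled in trf4Δ; with that undone, all wild-type values under 500 reads were within 0.01 of a whole number. A read at a border may count in neighbouring segments. Segment reads totalled 22092372 and 29687088, and wild type was multiplied by 1.344.

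Flanks of 500 bp, introns, unique 36-base words and coding identity were computed with R64 gene models, used by distance from the ORF start since R64 and file coordinates differ slightly; all 79 members have the same length in both. Introns needed 20 reads over both libraries. Intervals are exact Poisson or binomial ones, or from the normal approximation of log ratios for copies and introns, at 95%. Values of 1 further member are not reported here, although it is counted in the totals. No p-value was computed, since there is 1 library per genotype. Named in full were the 5 highest and 5 lowest members by difference, the 5 with most reads per kb in each library, members over 4-fold apart, the most and the 3 least unequal pairs by level, the 5 pairs that differed most in response, the 5 flanks with the largest gain, the 5 introns densest relative to exons and up to 4 genes of each other list. The introns with the largest change, the segment profiles and the split of exons were chosen after their values were seen. The members and lists were chosen with earlier results of these data known. The code for ORF calls was checked on simulated Poisson counts with planted changes, which hold no variation between libraries. Calls on segments, introns, exon parts and pairs were not simulated. Tools were scipy 1.17.1, statsmodels 0.14.6, Biopython 1.88, pandas 2.3.3, numpy 2.4.6 and matplotlib 3.10.9 under Python 3.11.15.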

Additional observations from a re-analysis of the deposited data

How the results depend on the processing

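With 1 library per genotype, lane, culture and strain cannot be told apart from genotype, and depth limits RPL9A and the introns most. No paired analysis was possible because each genotype has 1 library. Of 59 alternatives, 41 gave about the same value, 18 moved it and 0 turned its direction. Only the median log2 difference of the members and that of the intron to exon ratio could turn, since counts and absolute values cannot. Some same values were fixed in advance. The pairs had no filter in the main setting, and taking unique words as length cannot change their A minus B difference. With the median of all ORFs set to 0, the median of the members was -0.30, with 0 genes past 4-fold lower (0.194% of all ORFs), 7 past 4-fold higher (15.3%) and 15 past 2-fold lower (11.6%). Without scaling it was -0.84, with 4 genes past 4-fold lower (2.36% of all ORFs) and 6 past 4-fold higher (10.8%). Alternatives chosen after seeing the data gave -1.07 without the 14 members that overlap another ORF and -1.55 from exon segments only. Setting the median of segments to 0 gave 64 gained segments inside members (10.9%, all ORFs 8.53%). A more than 8-fold limit gave 9 inside (1.54%, all ORFs 2.66%) and 19 downstream (8.92%, 8.06%), and a more than 2-fold limit 62 inside (10.6%, all ORFs 8.21%). The median at 0 and the 2-fold limit thus put the inside share above that of all ORFs in place of just below. Flanks of 300 bp gave 9 upstream (6.12%, 13.0%) and 15 downstream (11.1%, 12.1%), as fewer segments were looked at. The shorter flanks thus put the downstream share below that of all ORFs in place of above. No minimum of reads gave 89 (32.0%, 31.3%) and 60 (28.2%, 26.7%), which removes the lower share upstream. Intron segments with more than 50 bp inside gave a log2 change of the ratio of 1.00 in place of 1.45. U1 reads held 15.5% and 21.8% of segment reads. Leaving them out of the totals gave none of the values counted as moved. It still took the genes past 4-fold lower from 15 to 10 (12.7%, all ORFs 7.77%). The causes were not tested.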
